A study of Homo sapiens with 9 samples.

Results

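Integrin subunits were followed through 9 RNA-seq libraries of Daoy cells, a cell line grown from a human medulloblastoma (a childhood tumour of the cerebellum). The set holds 10 genes picked by symbol: the collagen-binding subunits ITGA1, ITGA2 and ITGA11, the laminin-binding subunits ITGA3 and ITGA6, the subunits ITGA5, ITGAV, ITGB3 and ITGB5 of receptors that bind the arginine-glycine-aspartate (RGD) motif, and ITGB1, the beta subunit shared by many of these receptors. All 10 were found among the 57820 gene identifiers of the count files, and all 10 were among the 16155 genes with enough reads to be tested. DDX3X, the gene manipulated in the study, encodes a DEAD-box RNA helicase that is recurrently mutated in medulloblastoma.

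The control group had 2 libraries, 1 of parental Daoy cells and 1 of cells with vector. The knockdown group, shDDX3X, had 3 libraries: knockdown 1 and knockdown 3 carried a hairpin against the 3′ UTR of DDX3X, and knockdown 2 a hairpin against its open reading frame (ORF). A single library, labelled wtDDX3X, came from cells with the 3′ UTR hairpin and exogenous FLAG-tagged wild type DDX3X. A further 3 libraries came from such cells with a mutant DDX3X in place of the wild type, 1 library each for G302V, R534H and P568L. These 3 different mutations were averaged as the group mutDDX3X. The hairpins were inducible, the lines were polyclonal populations, and every sample carries the same treatment text of doxycycline at 1 µg/ml for 72 h. That text does not say separately whether the parental and vector cells received the drug. The labels do not say whether knockdowns 1 and 3, which carry the same hairpin, came from separate cultures. The control, knockdown and mutant groups mix lines, hairpins or mutations. The p-values therefore measure a spread that holds these differences together with technical ones. In a culture measured in bulk, fewer cells of one kind and less RNA per cell cannot be told apart.

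Integrins are receptors of the cell surface made of 1 alpha and 1 beta subunit, and they couple the extracellular matrix to the actin cytoskeleton. The alpha subunit largely sets the ligand: alpha1, alpha2 and alpha11 pair with beta1 and bind collagens, alpha3 and alpha6 bind laminins, and alpha5 with beta1 is the classical fibronectin receptor. Alpha V pairs with several beta subunits, among them beta3 and beta5, and these receptors bind vitronectin and other RGD ligands.

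What sets the 3 collagen-binding subunits apart from the other 4 alpha subunits of the set can be read in their coding sequence. They carry an inserted domain whose metal-ion-dependent adhesion site holds the cation that collagen contacts, and the stretch that encodes the start of this site is shown for each. Capitals mark the 7 codons of the site and lower case the flanking codons.
ITGA1: ctgGATGGTTCCAACAGTATTTACcca
ITGA2: tgtGATGAATCAAATAGTATTTATcct
ITGA11: ctgGATGGCTCCAACAGCATCTACccc

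The stretches lie in exon 6 of each gene, at chr5:52865722-52865748 (ITGA1, plus strand), chr5:53048675-53048701 (ITGA2, plus strand) and chr15:68358527-68358553 (ITGA11, minus strand) of GRCh38, with exons as numbered in the longest coding transcript of GENCODE v29. The 7 residues shared by these stretches are aspartate, any residue, serine, asparagine, serine, isoleucine and tyrosine. This pattern was searched in the coding frame of the longest coding sequence of each gene. It was found in 4 of 19484 coding genes (0.0205%), which were these 3 and ITGA10, another collagen-binding subunit. The pattern was found in 3 of the 7 alpha subunits of the set and in none of the 3 beta subunits. Being taken from these stretches, it cannot show whether other subunits hold a metal-ion site of another sequence. The collagen-binding subunits also have the longest coding sequences of the set, with 1179 to 1189 codons against 1048 to 1130 in the other 4 alpha subunits and 788 to 801 in the beta subunits.

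Each library held 8216568 to 13030572 reads assigned to genes. From the numbers in the deposited files' names, the parental control and knockdowns 1 and 2 formed one series (A) and the other 6 libraries another (B). The share of reads that did not align was 5.24% to 5.73% in series A and 19.6% to 24.0% in series B. The fits therefore carried a term for series. The labels name one sequencer for every library while the design text names a second one, and which libraries ran on it is not given in the sources used here. The parental control also stood apart in base composition: over 11590 genes, the Spearman correlation between GC content and level relative to the mean of all libraries was -0.714 there, against 0.385 in the vector control and -0.31 to 0.58 in the other 7 libraries, a description across genes that share each library. DDX3X itself was at 683 and 453 CPM (counts per gene scaled to a common library total after TMM normalisation) in the parental and vector controls, at 249, 139 and 183 CPM in knockdowns 1 to 3, and was lower in knockdown by 1.60 ± 0.24 on the log2 scale (SE; edgeR adjusted p = 0.0357, and 1.73e-15 to 0.484 over the alternative settings). It was at 195 CPM in the library labelled wtDDX3X and at 198 to 242 CPM in the 3 libraries labelled with a mutant, so the counts did not show exogenous DDX3X above the knockdown level (wtDDX3X minus knockdown 0.24, 95% interval -0.51 to 0.99, and mutDDX3X minus knockdown 0.39, 95% interval -0.20 to 0.98). Of the marker lists, the mesenchymal one was by far the highest. All 10 of its genes were tested and summed to 6729 to 12080 CPM. Most of this sum came from COL1A1 (1668 to 9871 CPM), VIM (988.3 to 2669 CPM) and COL1A2 (708.2 to 1909 CPM). The list was unevenly expressed, with PDGFRA at 0.6911 to 8.497 CPM and ACTA2 at 3.352 to 22.92 CPM. Of 12 markers of the cerebellar granule lineage 7 were tested and summed to 104.5 to 181.2 CPM, with ATOH1 at no more than 0.117 CPM. Of 10 neural stem and neuronal markers 9 were tested. That list summed to 30.24 to 57.1 CPM in the controls, 39.21 to 73.26 in the knockdowns, 103.7 in wtDDX3X and 63.2 to 89.58 in the mutants. The haematopoietic list summed to 2.35 CPM at most, with PF4 and GP9 at 0 in every library, and the endothelial list to 17.9 CPM at most. Of 8 epithelial markers 4 were tested. They summed to 342.7 to 435.3 CPM in the controls, 400.8 to 478.1 in the knockdowns, 474.3 in wtDDX3X and 231.0 to 306.9 in the mutants, mostly from KRT8 and KRT18, with CDH1 and KRT19 under 0.71 CPM. The part of this list's genes in the integrin values was not tested.

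By its median level, 1 shared beta subunit was well above every other member. Levels between genes are given as CPM divided by the length in kilobases of the gene's longest coding transcript. On this scale ITGB1 had a median of 153.6 over the 9 libraries and ITGA5 of 78.3. ITGB5 followed at 54.7, ITGA3 at 47.65 and ITGAV at 30.3. ITGA2 and ITGA6 were close to each other at 15.3 and 15.1, and ITGA11 (4.59), ITGB3 (3.03) and ITGA1 (2.25) were the lowest. ITGB1 was above ITGA5, ITGAV above ITGA2, ITGA6 above ITGA11 and ITGB3 above ITGA1 in 9 of 9 libraries. In the R534H library ITGB1 was at 142.3 and ITGA5 at 116.7. The neighbours between ITGA5 and ITGAV could not be ordered: ITGA5 was above ITGB5 in 7 of 9 libraries, ITGB5 above ITGA3 in 6 and ITGA3 above ITGAV in 6. ITGA2 was likewise above ITGA6 in 6 of 9. The raw counts behind these levels ran from 75 reads (ITGB3 in the G302V library) to 9638 (ITGB1 in knockdown 1), so ITGB3 and ITGA1 are the least precisely counted members. The library kit does not mark the strand, and the spans of 8 of the 10 genes, introns included, overlap other annotated genes. Examples are PELO on the strand of ITGA1 and an antisense gene each for ITGA6 and ITGB5. Whether exons overlap was not examined, and reads from any shared exon stretch cannot be assigned by strand. ITGA3 and ITGA11 overlap none.

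Compared by ligand class in each library, RGD-binding alpha subunits (ITGA5 and ITGAV) gave the largest part of the alpha subunit level and collagen-binding subunits the smallest in every one of the 9. The collagen-binding share of the summed level per kilobase of the 7 alpha subunits was 15.2% and 14.9% in the controls, 14.3%, 13.6% and 9.98% in knockdowns 1 to 3, 10.5% in wtDDX3X, and 10.7%, 10.2% and 11.6% in G302V, R534H and P568L. It was thus below both controls in the other 7 libraries. With union exon length in place of transcript length that separation was lost, since knockdown 1 was at 19.3% and the parental control at 18.8%. Within series B, where 5 of these 7 libraries belong, the share was 14.9% in the vector control against 9.98% to 11.6% (20.7% against 14.2% to 16.4% with union exon length). The laminin-binding share was 25.7% in the parental and 37.9% in the vector control, 25.8%, 23.8% and 36.6% in knockdowns 1 to 3, 33.9% in wtDDX3X and 36.5%, 30.5% and 32.1% in the mutants. The 3 lowest values of that share were the 3 libraries of series A. The RGD-binding share was 59.1% in the parental and 47.2% in the vector control, 59.9%, 62.6% and 53.4% in knockdowns 1 to 3, 55.6% in wtDDX3X and 52.8%, 59.2% and 56.3% in the mutants, and the 2 control values enclosed 4 of the other 7. Shares of one total move against each other, and no test was made on them.

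**Figure D1:**
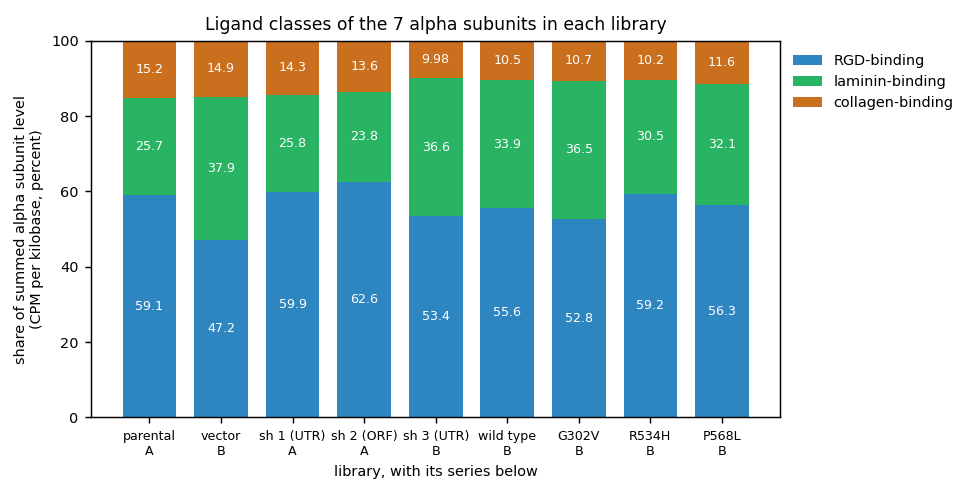
Share of the summed alpha subunit level (CPM per kilobase, percent, vertical axis) taken by collagen-binding, laminin-binding and RGD-binding alpha subunits in each of the 9 libraries (bars), with the series below each bar. The collagen-binding part is 15.2% and 14.9% in the 2 controls and 9.98% to 14.3% in the other 7 libraries.

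As a summed level, the RGD-binding alpha subunits were above both controls in the other 7 libraries. Their sum was 74.1 to 85.9 CPM per kilobase in the controls and 102 to 138 in the knockdowns, 115 in wtDDX3X and 101 to 144 in the mutants. The sum of the collagen-binding subunits was 22.0 to 23.5 in the controls and 19.1 to 33.1 in the knockdowns, 21.8 in wtDDX3X and 20.4 to 24.9 in the mutants, so those groups overlapped. The laminin-binding sum was 37.3 to 59.5 in the controls and overlapped with the 47.4 to 70.1 of the knockdowns, while wtDDX3X (70.0) and the mutants (63.8 to 74.3) were above both controls.

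Among the collagen-binding subunits, ITGA11 and ITGA2 moved in opposite directions. ITGA11, the receptor for fibrillar collagen typical of fibroblasts and other mesenchymal cells, was at 99.5 and 79.9 CPM in the parental and vector controls, at 37.6, 70.8 and 35.6 CPM in knockdowns 1 to 3, at 46.7 CPM in wtDDX3X and at 48.1, 39.1 and 19.6 CPM in G302V, R534H and P568L. Every library other than the controls lay below both controls, with P568L lowest and the ORF hairpin library nearest to the controls. ITGA2, the collagen receptor subunit of platelets and epithelia, was at 77.4 and 104.8 CPM in the controls, at 209.1, 136.5 and 105.2 CPM in the knockdowns, at 120.1 CPM in wtDDX3X and at 110.4, 154.0 and 149.9 CPM in the mutants. Knockdown 3 lay only just above the vector control of its own series, and knockdown 1 was the highest of all. ITGA1, which prefers collagen of basement membranes, was at 26.35 and 24.85 CPM in the controls, at 30.1, 29.5 and 24.2 CPM in the knockdowns, at 20.6 CPM in wtDDX3X and at 17.8, 16.5 and 21.65 CPM in the mutants. The 3 mutant libraries were below all 3 knockdowns, and knockdowns and controls overlapped.

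**Figure D2:**
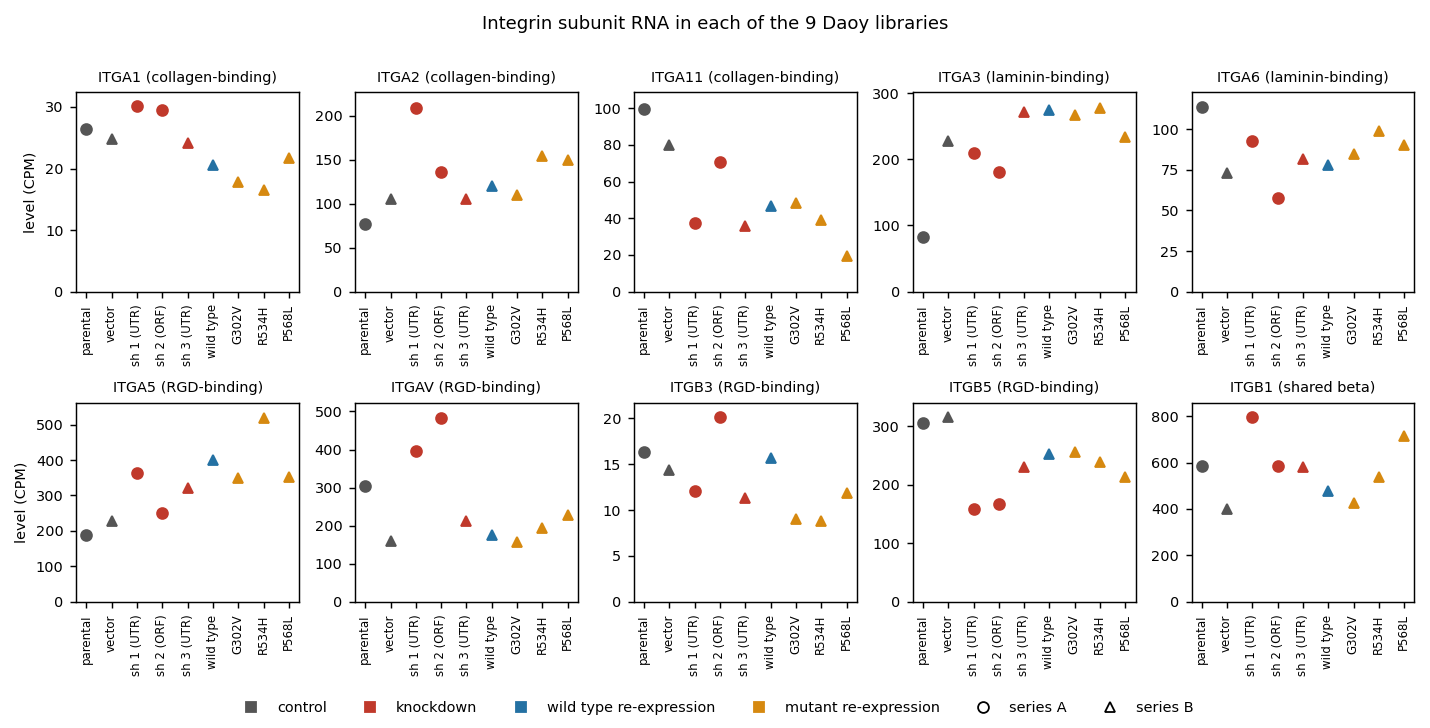
Level of each of the 10 integrin subunits (CPM, vertical axes, each from 0) in the 9 libraries (1 point each), coloured by group and shaped by series. ITGB5 is at 306 and 316 CPM in the controls and 158 to 255 CPM elsewhere, and ITGA3 is lowest in the parental control (82.9 CPM).

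Of the laminin-binding subunits, ITGA3 differed mainly between the parental cells and all others. ITGA3 encodes the alpha subunit of the receptor for the laminins of epithelial basement membranes. It was at 82.9 and 227.0 CPM in the parental and vector controls, at 210.0, 181.2 and 271.1 CPM in the knockdowns, at 274.2 CPM in wtDDX3X and at 266.2, 276.8 and 232.9 CPM in the mutants. The vector control lay inside the range of the knockdowns, so control and knockdown overlapped, and the 8 libraries besides the parental one ran from 181.2 to 276.8 CPM. ITGA6, which pairs with beta1 or with beta4 and marks many stem and epithelial cells, was at 114.1 and 73.3 CPM in the controls, at 92.55, 58.0 and 82.0 CPM in the knockdowns, at 78.2 CPM in wtDDX3X and at 84.7, 99.3 and 90.5 CPM in the mutants. It was lowest in the ORF hairpin library and highest in the parental control, and all groups overlapped.

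The RGD-binding subunits split between ITGA5, which was higher outside the controls, and ITGB5, which was lower. ITGA5 was at 188.5 and 229.2 CPM in the controls, at 364.5, 249.9 and 320.2 CPM in the knockdowns, at 399.9 CPM in wtDDX3X and at 348.0, 518.7 and 352.1 CPM in the mutants. Each of these 7 values lay above both controls, and R534H was the highest. ITGB5, the beta subunit of a vitronectin receptor that pairs with alpha V alone, was at 306.0 and 316.1 CPM in the controls, at 157.9, 167.0 and 230.2 CPM in the knockdowns, at 252.2 CPM in wtDDX3X and at 255.4, 239.0 and 212.7 CPM in the mutants. The 2 controls lay close together and all 7 other libraries were below them, the 2 knockdowns of series A being lowest.

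ITGAV, the alpha partner of beta3 and beta5, was higher in series A than in series B, a difference that was not tested. The wtDDX3X and mutant libraries are all in series B, so series and group cannot be told apart there. It was at 305.4 and 158.7 CPM in the controls, at 395.5, 482.0 and 213.1 CPM in the knockdowns, at 176.0 CPM in wtDDX3X and at 156.8, 192.8 and 228.1 CPM in the mutants. The 3 libraries of series A held the 3 highest values, and within each series the knockdowns were above their control. ITGB3, the beta subunit shared with the platelet fibrinogen receptor, was at 16.3 and 14.4 CPM in the controls, at 12.1, 20.1 and 11.3 CPM in the knockdowns, at 15.7 CPM in wtDDX3X and at 9.07, 8.77 and 11.9 CPM in the mutants. Per kilobase, ITGB5 exceeded ITGB3 7.59-fold to 25.7-fold, with the lowest ratio in the ORF hairpin library and the highest in G302V.

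ITGB1, the partner of most alpha subunits in the set, was at 584.6 and 401.5 CPM in the controls, at 797.8, 583.3 and 581.4 CPM in the knockdowns, at 479.5 CPM in wtDDX3X and at 426.0, 538.6 and 712.8 CPM in the mutants. The groups overlapped, with knockdown 1 and P568L highest. Per kilobase its level was 0.585 to 1.06 times the summed level of the 7 alpha subunits, lowest in R534H and highest in the parental control. The processed pseudogene ITGB1P1 was counted at 8.28 to 28.97 CPM, and how reads matching both loci were assigned is not given in the sources used here.

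In shDDX3X against control, which asks what loss of the helicase does to these receptors, none of the 10 members passed an adjusted p of 0.05 in the edgeR quasi-likelihood test (0.675% of all genes tested did). By group, 2 of 3 collagen-binding, 1 of 2 laminin-binding and 2 of 4 RGD-binding members had higher fitted values in knockdown, as did ITGB1. The median over the 10 was 0.23 on the log2 scale against -0.009 over all genes, and the median size of difference was 0.55 against 0.32. Unadjusted p was under 0.05 for 5 of 10 members, against 22.0% of all genes: ITGA3, ITGA5 and ITGAV with higher values and ITGA11 and ITGB5 with lower ones. The groups did not overlap for ITGA2 and ITGA5 on the high side (10.1% of all genes) and for ITGA11 and ITGB5 on the low side (10.8%).

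ITGB5 had the smallest p of the set, with a log2 fold change of -0.72 ± 0.16 (SE), that is 0.607 of the control level (edgeR adjusted p = 0.0635). ITGA11 had the largest difference, -0.999 ± 0.36, at 0.500 of the control level (edgeR adjusted p = 0.154). ITGA3 had the largest positive value, 0.805 ± 0.23 (edgeR adjusted p = 0.0968). The remaining RGD-binding alpha subunits gave 0.61 ± 0.23 for ITGA5 (edgeR adjusted p = 0.170) and 0.48 ± 0.19 for ITGAV (edgeR adjusted p = 0.178), and ITGA2 gave 0.65 ± 0.30 (edgeR adjusted p = 0.240). ITGA1 (0.09), ITGA6 (-0.28), ITGB3 (-0.15) and ITGB1 (0.365) had edgeR adjusted p-values of 0.389 to 0.839. These 4 intervals reached from -0.81 to 0.88 in all. A difference as large as that of ITGB5 lay inside the intervals of ITGA6 and ITGB3 on the low side and of ITGB1 on the high side.

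The tool mattered for these members. DESeq2 with the same terms called ITGB5 (adjusted p = 0.00923), ITGA3 (adjusted p = 0.0135) and ITGA11 (adjusted p = 0.0484), 3 of 10 against 8.20% of all genes. Over 19 other settings the adjusted p ran from 0.00253 to 0.697 for ITGB5, from 0.0022 to 0.994 for ITGA3 and from 0.000196 to 0.923 for ITGA11, and the sign of each was the same in all 19. The members differ in GC content, from 38.2% (ITGAV) to 60.9% (ITGA3), and the parental library differs from the rest by GC content. With each library's GC trend removed, ITGA3 was 0.32 (edgeR adjusted p = 0.233) and ITGA5, at 58.7% GC, was 0.29 (edgeR adjusted p = 0.481), while ITGB5 was -0.84 (edgeR adjusted p = 0.0333), ITGA11 -0.99 and ITGAV 0.68. Without the parental control the fit set only knockdown 3 against the vector control. ITGA3 was then 0.26, ITGA2 0.00476 and ITGB5 -0.46, whereas ITGA11 was -1.17. Without the vector control, and equally without knockdown 3, only knockdowns 1 and 2 were set against the parental control. ITGA3 was then 1.24, ITGA2 1.16 and ITGB5 -0.913. These fits repeat the comparison within a single series and are not separate checks.

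**Figure D3:**
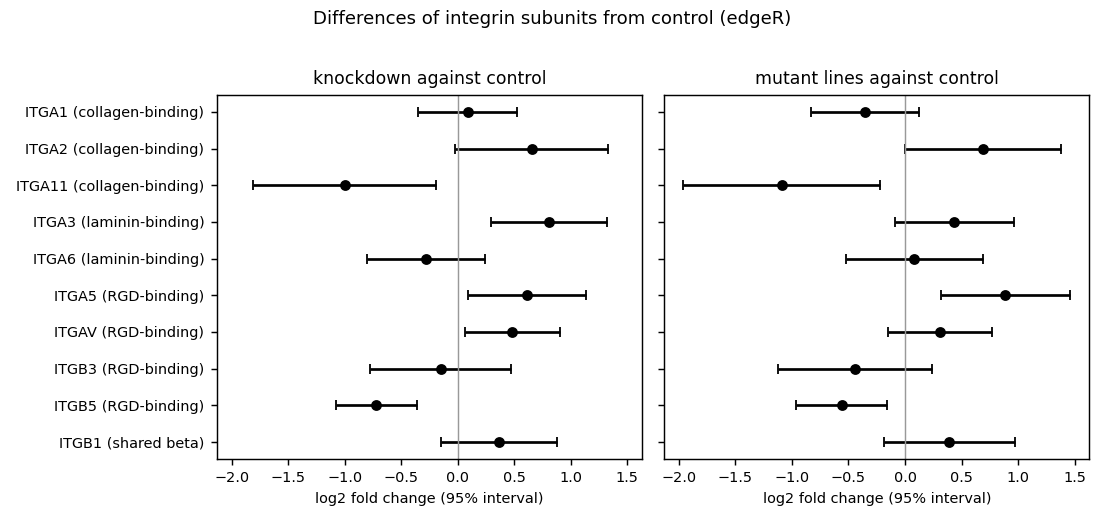
Log2 fold change from control with its 95% interval (horizontal axis) for each of the 10 members, in shDDX3X (left) and mutDDX3X (right), from the edgeR fit over all 9 libraries. ITGA11 and ITGB5 lie below 0 and ITGA5 above 0 with intervals that leave out 0 in both panels, and no member passed an adjusted p of 0.05.

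In mutDDX3X against control, again none of the 10 members passed (0.0186% of all genes did). The control libraries are shared with the knockdown comparison, so the values are given side by side and are not a second line of evidence. ITGA11 was -1.09 ± 0.39 (edgeR adjusted p = 0.329), beside -0.999 in knockdown. ITGA5 was 0.89 ± 0.26 (edgeR adjusted p = 0.258), beside 0.61. ITGB5 was -0.56 ± 0.18 (edgeR adjusted p = 0.292), beside -0.72, and ITGA2 was 0.69 ± 0.31 (edgeR adjusted p = 0.422), beside 0.65. These were the members with the largest differences in both comparisons apart from ITGA3, which was 0.44 here (edgeR adjusted p = 0.500). ITGA1 (-0.35), ITGB3 (-0.44), ITGB1 (0.39), ITGAV (0.31) and ITGA6 (0.08) had edgeR adjusted p-values of 0.559 to 0.943. Unadjusted p was under 0.05 for 3 of 10 members (ITGA5, ITGA11 and ITGB5) against 11.9% of all genes, and DESeq2 called 0 of 10 (1.01% of all genes). The groups did not overlap for 3 members on the high side, ITGA2, ITGA3 and ITGA5 (18.7% of all genes), and for 4 on the low side, ITGA1, ITGA11, ITGB3 and ITGB5 (17.6%). Overlap was judged on CPM without regard to series, and the mutants are all in series B while the parental control is in series A. For ITGA3 the vector control was at 227 CPM, near the mutants at 232.9 to 276.8 CPM, and the parental control at 82.86 CPM.

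The libraries labelled as re-expressing DDX3X, which carry the 3′ UTR hairpin, were next set against all 3 knockdowns. Of these, knockdown 2 carries the ORF hairpin, and only knockdown 3 shares both hairpin and series with them. In wtDDX3X, a single library, the 10 members ranged from -0.30 to 0.37 on the log2 scale, 5 higher and 5 lower, and none was called (0% of all genes). Unadjusted p was under 0.05 for 0 of 10 members (2.92% of all genes). ITGB3 had the largest value, 0.37 (95% interval -0.52 to 1.26). The median size of the difference was 0.27, beside 0.25 over all genes. For mutDDX3X the members ranged from -0.44 to 0.37, with none called (0% of all genes) and a median size of 0.23, the same as over all genes. ITGA1 had the smallest p, at -0.44 ± 0.22 (edgeR adjusted p = 0.831), and was the only member whose mutant and knockdown libraries did not overlap, on the low side (6.80% of all genes, and 7.84% on the high side, where the set had none). Unadjusted p was under 0.05 for 0 of 10 members (5.53% of all genes). Directly between mutDDX3X and wtDDX3X none was called (0% of all genes), and ITGB3 differed most, at -0.66 ± 0.34 (edgeR adjusted p = 1). Among the 3 mutants, each with 1 library and so with no replicate, P568L had the lowest ITGA11 (19.6 CPM) and ITGB5 (212.7 CPM) and the highest ITGB1 (712.8 CPM), and R534H had the highest ITGA5 (518.7 CPM).

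Between the hairpins, the ORF hairpin library and the 3′ UTR hairpin libraries differed most in ITGA6, ITGA11 and ITGB3. ITGA6 was -0.79 ± 0.25 in the ORF hairpin library relative to the others (edgeR adjusted p = 0.359), ITGA11 was 0.85 ± 0.50 (edgeR adjusted p = 0.671) and ITGB3 was 0.71 ± 0.32 (edgeR adjusted p = 0.554). No member was called (0% of all genes), 1 of 10 (ITGA6) had an unadjusted p under 0.05 (9.11% of all genes), and the ORF hairpin is represented by 1 library.

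Because series and library of control go together, each library was also set against the control of its own series. ITGA2, ITGA3 and ITGA5 were above that control in 7 of 7 libraries (12.4% of all genes were), and ITGA11 and ITGB5 were below it in 7 of 7 (12.2%). The libraries of a series share 1 control, so the 7 values are not independent. ITGB5 was at -0.95 and -0.87 on the log2 scale in knockdowns 1 and 2, at -0.46 in knockdown 3, at -0.33 in wtDDX3X and at -0.31, -0.40 and -0.57 in the mutants. ITGA11 was at -1.40, -0.49 and -1.16 in the knockdowns, -0.77 in wtDDX3X and -0.73, -1.03 and -2.02 in the mutants. ITGA5 was at 0.95, 0.41 and 0.48 in the knockdowns, 0.80 in wtDDX3X and 0.60, 1.18 and 0.62 in the mutants. These 3 members had one direction in both series, ITGB5 being farther from 0 in the series A knockdowns. ITGA3 differed in size between the series: it was at 1.34 and 1.13 in the series A knockdowns but at 0.26 in knockdown 3 and 0.04 to 0.29 in the 4 other libraries of series B. ITGA2 was at 1.43 and 0.82 in series A and 0.00 in knockdown 3.

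The difference between the series was tested as an interaction. For ITGA3 it was -0.98 ± 0.32 (series B minus series A; edgeR adjusted p = 0.145), for ITGA2 -1.15 ± 0.44 (edgeR adjusted p = 0.256) and for ITGA6 0.76 ± 0.40 (edgeR adjusted p = 0.463). No member was called, against 3.19% of all genes, nor by DESeq2 (4.28% of all genes).

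**Figure D4:**
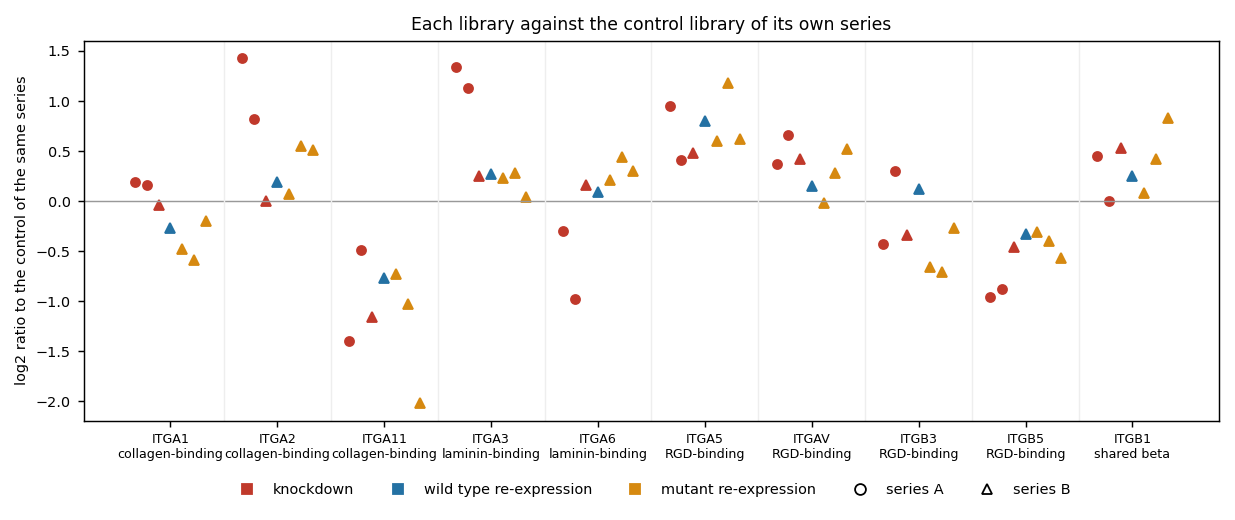
Log2 ratio (vertical axis) of each of the 7 knockdown and re-expression libraries to the control library of the same series, for the 10 members (horizontal axis). ITGA11 and ITGB5 lie below 0 and ITGA2, ITGA3 and ITGA5 above 0 in 7 of 7 libraries, with ITGA3 higher in series A (1.13 and 1.34) than in series B (0.04 to 0.29).

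The 16 other integrin subunits give the context of the set. Enough reads were counted for 12 of them (all but ITGA8, ITGAD, ITGAL and ITGAM), and edgeR called none in shDDX3X or mutDDX3X against control, where DESeq2 called ITGB4 in both and ITGA9 in the first. ITGB4, the partner of alpha6 in hemidesmosomes, came closest. It was at 32.6 and 97.2 CPM in the controls, at 6.13, 12.5 and 22.45 CPM in the knockdowns, at 31.35 CPM in wtDDX3X and at 29.4, 10.9 and 9.98 CPM in G302V, R534H and P568L. All 3 knockdowns, wtDDX3X and all 3 mutants were below both controls, wtDDX3X and G302V only just below the parental one. Of all genes, 10.8% lay below both controls in every knockdown and 17.6% in every mutant. Against the vector control of their series, wtDDX3X was at -1.63 and G302V at -1.72 on the log2 scale, with R534H at -3.14 and P568L at -3.26. Its log2 fold change was -1.94 ± 0.45 in knockdown (edgeR adjusted p = 0.0681) and -2.47 ± 0.48 in the mutants (edgeR adjusted p = 0.134). DESeq2 called both (adjusted p = 0.000323 and 6.74e-05), and over the other settings the adjusted p ran from 4.14e-05 to 0.563 and from 5.28e-06 to 0.588. ITGA6, the alpha partner, was at -0.28 and 0.08 in the same comparisons.

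The other 11 were expressed at low levels or differed less. ITGA9 was at 6.78 and 7.59 CPM in the controls and 1.16 to 3.78 CPM in the knockdowns (log2 fold change -1.79 ± 0.61, edgeR adjusted p = 0.138, DESeq2 adjusted p = 0.0374, and 0.000128 to 0.842 over the alternative settings), with G302V highest of all libraries at 16.8 CPM. ITGB6, which with alpha V activates latent TGF-beta, was at 3.43 and 3.75 CPM in the controls and 5.79 to 11.65 CPM in the knockdowns (1.13 ± 0.44, edgeR adjusted p = 0.175). ITGB8, a further partner of alpha V, was at 66.0 and 45.6 CPM in the controls and 38.5 to 74.1 CPM in the knockdowns (-0.18, edgeR adjusted p = 0.693). ITGB7 (-1.15), ITGA7 (-0.72), ITGA10 (-0.68), ITGA4 (0.13) and ITGAE (-0.16) had edgeR adjusted p-values of 0.178 to 0.814. The leukocyte and platelet subunits ITGA2B, ITGAX and ITGB2 stayed under 2.45 CPM in all 9 libraries.

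Genes of the integrins' ligands and partners were read from lists. Of 10 collagen ligand genes, edgeR called 3 higher in shDDX3X against control and none lower (0.675% of all genes were called), and DESeq2 called 4 higher and none lower (8.20% of all genes), with a median of 0.64 against -0.009 over all genes. The list was split in direction, with 6 genes higher and 4 lower. Unadjusted edgeR p was under 0.05 for 4 on the high side and 3 on the low side (22.0% of all genes). COL1A1 and COL5A1, chains of fibrillar collagens, rose by 1.49 ± 0.25 (edgeR adjusted p = 0.0449) and 1.5 ± 0.19 (edgeR adjusted p = 0.0175), and COL4A2, a basement membrane chain, by 1.14 ± 0.20 (edgeR adjusted p = 0.0482). COL5A1 was at 441 and 775 CPM in the controls and at 1339, 1458 and 1899 CPM in the knockdowns, so its groups did not overlap. COL1A1 was at 1668 and 4721 CPM in the controls against 5207 to 9871 CPM, with the parental library far below the vector library. These 3 calls stand beside lower values of the collagen receptor subunit ITGA11 and higher values of ITGA2 in the same libraries. Leaving out the parental control ended all 3 calls, as did leaving out any 1 of the 3 mutant libraries, and leaving out knockdown 1 ended those of COL1A1 and COL4A2. With the GC trend removed COL4A2 was 0.54 (edgeR adjusted p = 0.101) and COL1A1 0.98 (edgeR adjusted p = 0.046). Without the parental control only knockdown 3 was set against the vector control. The 3 log2 fold changes were then 1.06 (COL1A1), 1.29 (COL5A1) and 0.86 (COL4A2).

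Of 10 laminin ligand genes edgeR called none and DESeq2 1 (LAMA3), with a median of -0.021. LAMA3, a chain of epithelial laminin bound by alpha3 and alpha6 receptors, had the smallest p, at 17.5 and 14.4 CPM in the controls and 4.64 to 8.63 CPM in the knockdowns (-1.27 ± 0.30, edgeR adjusted p = 0.0681, DESeq2 adjusted p = 0.0146, and 0.00134 to 0.803 over the alternative settings). LAMA4 was -0.52 (edgeR adjusted p = 0.159) and LAMA1 0.42 (edgeR adjusted p = 0.393). Of 12 tested RGD ligand genes edgeR called none and DESeq2 1 (FBN1), with a median of 0.60, and the smallest p-values belonged to FBN1 (fibrillin, 0.85, edgeR adjusted p = 0.125, DESeq2 adjusted p = 0.0223, and 0.000861 to 0.803 over the alternative settings), TNC (tenascin, 0.54, edgeR adjusted p = 0.185) and MFGE8 (0.87, edgeR adjusted p = 0.227).

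Of 27 tested activators and adaptors on the inner side of the membrane, edgeR called 1 higher and none lower (0.675% of all genes called, median of the list 0.18), and DESeq2 called 8 higher and none lower (8.20% of all genes called). The edgeR call was FLNA, an actin crosslinker that binds beta tails, which rose by 1.47 ± 0.26 (edgeR adjusted p = 0.0449), from 879.5 and 2494 CPM in the controls to 3297 to 4307 CPM. TLN2, a talin that activates integrins, was 1.02 ± 0.20 (edgeR adjusted p = 0.0511, DESeq2 adjusted p = 0.000451), and ZYX, a protein of mature adhesions, was 1.52 ± 0.36 (edgeR adjusted p = 0.0684, DESeq2 adjusted p = 8.29e-05). Over the alternative settings the adjusted p ran from 4.1e-05 to 0.85 for TLN2 and from 3.11e-09 to 0.794 for ZYX. Of 13 membrane partners, edgeR called 1 lower and none higher (median 0.32), and DESeq2 called 1 lower and 3 higher. The edgeR call was CD9, a tetraspanin that associates with beta1 integrins, at 123 and 128 CPM in the controls and 40.3, 34.0 and 41.0 CPM in the knockdowns (fell by 1.69 ± 0.26, edgeR adjusted p = 0.0430). The 2 controls of CD9 agreed closely and lay far above every knockdown. CD151, the tetraspanin partner of alpha3, was 0.67 (edgeR adjusted p = 0.0853, DESeq2 adjusted p = 0.0179), and PLAUR, the urokinase receptor, was 1.20 (edgeR adjusted p = 0.0865, DESeq2 adjusted p = 0.00153). Over the alternative settings the adjusted p ran from 0.0142 to 0.997 for CD151 and from 2.57e-06 to 0.955 for PLAUR, and CD151 was -0.0512 with the GC trend removed. Leaving out the parental control, which left only knockdown 3 against the vector control, or leaving out knockdown 1 ended both calls. FLNA was 0.788 and CD9 -1.65 without the parental control. With the GC trend removed FLNA was 0.85 (edgeR adjusted p = 0.0397). Leaving out any mutant library ended the FLNA call, and leaving out R534H, P568L or knockdown 2 that of CD9. In mutDDX3X against control edgeR called no gene of these 5 lists (0.0186% of all genes). DESeq2 (1.01% of all genes) called COL5A1 higher (1.03, DESeq2 adjusted p = 0.0036) and PLAUR higher (1.26, DESeq2 adjusted p = 0.018), CD9 lower (-1.46, DESeq2 adjusted p = 0.00121), and 2 of the adaptors and 1 further membrane partner lower. Over the alternative settings the adjusted p ran from 0.000188 to 0.511 for COL5A1, from 3.79e-06 to 0.641 for PLAUR and from 2.34e-08 to 0.511 for CD9.

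The genes whose pattern over the 9 libraries was most like that of the 2 members with the largest positive and negative knockdown values were found by Pearson correlation of log2 CPM after the mean of each series was subtracted, among 11565 genes. For ITGA3 they were MPG (r = 0.997), CORO1B (r = 0.995) and PCNX3 (r = 0.994). All 3 shared the low parental value, MPG for example at 1.95 CPM there and 9.97 to 22.49 CPM elsewhere, and their GC content was 63.8% to 65.6%, above the median of 48.5% over the genes tested. For ITGA11 they were DNAJB5 (r = 0.977), MPI (r = 0.975) and NDRG2 (r = 0.973). NDRG2 was at 17.15 and 20.7 CPM in the controls and 4.30 to 11.9 CPM in the other 7 libraries. The libraries of a series share a series mean here, and these correlations are a description.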

How the data were processed

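Libraries of poly-A RNA (TruSeq version 2, 100 nucleotide single-end reads) were deposited by the authors as raw counts of reads per Ensembl gene, 1 table per library. The tools HTSeq, HISAT2, DESeq2 and bcl2fastq and the builds hg19 and GRCh37 are listed, without versions, per the submitters' processing notes. Summary lines that name no gene (20.3% to 35.8% of each table's total) were left out. Symbols and transcript lengths came from GENCODE v29 on GRCh38 (89.93% of identifiers had a symbol, and all 10 members did).

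Tested genes reached 1 CPM in 2 or more libraries, and all 9 libraries were fitted together in edgeR 4.0.16 (R 4.3.3, limma 3.58.1; TMM, robust quasi-likelihood test, terms for group and series, 4 residual degrees of freedom). P-values were adjusted by Benjamini-Hochberg over all 16155 genes and called at 0.05. Series were read from the numbers in the deposited files' names. Intervals are 95%. A count of 3 corresponds to 0.230 to 0.365 CPM. Alternatives were DESeq2 1.42.0, other size factors, filters, terms, lengths, a GC trend (loess) removed, and each library left out. The scripts were tested on simulated counts. No pair of libraries within a group agreed to within the noise of read sampling (ratio of chi-square to its degrees of freedom 11.2 or more).

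Named were all members, every tested other integrin, of each ligand, adaptor and partner list the called genes or else the 3 with the smallest p, DDX3X, and the 3 genes most like the extreme members. A list with a call also has its next genes where their p was among the 3 smallest. The members and lists were chosen with earlier results of these data known.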

Additional observations from a re-analysis of the deposited data

Results flagged for a closer look

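Of the 15 ligand, adaptor and partner genes named for their knockdown p, 2 adhesion adaptors differed between the series in their response to knockdown, by a test of the difference itself, which called 3.19% of all genes (516 of 16155, 477 of them lower in series B). The knockdown difference of ZYX was smaller in series B than in series A by a log2 interaction of -1.77 ± 0.34 (SE; edgeR adjusted p = 0.0145): the parental control was at 158 CPM and knockdowns 1 and 2 at 705.5 and 867 CPM, while the vector control was at 599 and knockdown 3 at 874.6 CPM. That of FLNA was -1.22 ± 0.29 (edgeR adjusted p = 0.0425), with 879.5 CPM in the parental and 2494 CPM in the vector control. In both, the parental control was the lowest of the 9 libraries. Each series has 1 control, parental in A and vector in B, so series and control line cannot be told apart. With the GC trend removed the test of the difference called 4 of 16155 genes, against 516 as fitted. The values of ZYX and FLNA in that setting of the test are not given here. In shDDX3X against control, with the GC trend removed, the value of ZYX was 0.649, against 1.52 as fitted, and that of FLNA was smaller too. No integrin subunit of the set passed this test.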

How the results depend on the processing

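Over 19 alternative settings the 70 member differences gave 1110 recomputed values, of which 59 had the other sign (0 of these called) and 23 were called with the same sign. In shDDX3X against control, where 0 of 10 members were called, 3 were called by DESeq2, 5 with no filter beyond 1 count (ITGA2, ITGA3, ITGA5, ITGA11 and ITGB5), 1 with the GC trend removed (ITGB5) and 2 in series A alone (ITGA3 and ITGB5, an alternative chosen after seeing the data, as was series B alone). Leaving out 1 library gave 0 to 3 members, with ITGA2, ITGA3 and ITGB5 called without the vector control or without knockdown 3. In mutDDX3X against knockdown leaving out 1 library gave 0 to 1 (ITGA3 at -1.05 without knockdown 3), in mutDDX3X against control 0 to 1 (ITGA3 at 1.17 without the vector control), with 2 under no filter (ITGA5 and ITGA11), and in the difference between series 0 to 1 (ITGA2 at -1.43 without knockdown 2), with 1 under no filter. In shDDX3X against control the fits without the vector control and without knockdown 3 both set knockdowns 1 and 2 against the parental control alone. They are therefore not separate checks. The fit without the parental control set only knockdown 3 against the vector control. The cause of the changed calls was not tested. Signs turned for ITGA1 (-0.0365) and ITGA6 (0.163) in series B alone, and for the same genes with 1 library left out (ITGA1 from -0.0368 without the parental control to 0.178 without the vector control, ITGA6 from 0.163 to -0.60). In mutDDX3X against control they turned for ITGA6 (-0.0343) and ITGAV (-0.269) with no series term and for ITGA6 without the vector control (-0.442, against 0.321 without the parental control). In shDDX3X against control CD151, a membrane partner, was -0.0512 with the GC trend removed. With the replicate number of the titles as a replicate block (2 pairs, no series term) 0 members and 0 genes were called and ITGB3 was 0.0287. Deviations of same-numbered libraries from their group mean correlated at 0.39 for one pair and -0.28 for the other. The deviations of the 2 controls mirror each other, so this check cannot show whether the numbers mark a pairing. With union exon length in place of transcript length the collagen-binding share was 19.8% in control, 17.0% in shDDX3X, 15.3% in wtDDX3X and 15.6% in mutDDX3X, the laminin-binding share 29.6% in wtDDX3X and 29.2% in mutDDX3X, and the RGD-binding share 55.1% in wtDDX3X. Genes called over the whole table ranged from 0 to 2097 in shDDX3X against control (109 as fitted), 0 to 597 in wtDDX3X and 0 to 999 in mutDDX3X against knockdown (0 each), 0 to 781 in mutDDX3X against control (3), 0 to 36 in mutDDX3X against wtDDX3X (0), 0 to 919 between hairpins (0) and 1 to 1037 between series (516). At unadjusted p under 0.05 the comparisons with 0 called had 472, 894, 315 and 1472 genes in that order, and by DESeq2 3, 26, 0 and 87. The adjusted p of the 5 called list genes ran from 1.19e-11 to 0.918 (COL1A1), 7.15e-07 to 0.8 (COL4A2), 7.08e-12 to 0.591 (COL5A1), 1.18e-10 to 0.849 (FLNA) and 4.85e-14 to 0.484 (CD9). The hairpin contrast without knockdown 2 or with only its groups, the wtDDX3X contrasts without their library, and the series contrast without either control or knockdown 3 could not be estimated.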
